A study of Mus musculus with 18 samples.

Results

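The comparison asks which genes responded to IFN-alpha-pMC beside the injected cells only, and which responded to the same extent in the distant tumour. For each gene it takes the effect of IFN-alpha-pMC over pMC in the right tumour and subtracts the same effect in the left tumour. Its members are 12 of the 18 libraries of the series, picked by their titles, with 3 libraries in each of 4 groups (IFN-alpha-pMC_right, pMC_right, IFN-alpha-pMC_left and pMC_left), and 14849 genes could be tested. All 4 groups were tumours of C57BL/6 mice given 100000 MO4 cells, a B16F10 melanoma line that expresses ovalbumin, under the skin of each hindlimb on day 0. In the IFN-alpha-pMC groups, cells derived from induced pluripotent stem cells and labelled IFN-alpha (1000000 per injection) were injected next to the right-sided tumour on days 5, 6 and 7. In the pMC groups such cells without that label were given there at the same number and on the same days. No cells were placed beside a left tumour in any group, and RNA of both tumours was taken on day 11. The labels do not say how the IFN-alpha cells make the cytokine, whether the 3 libraries of a group came from separate mice, or whether a right and a left library with the same number came from 1 mouse, so the p-values measure the spread between these libraries. The other 6 libraries, from tumours without injected cells, are in none of the comparisons. They helped to estimate that spread and also entered the low-count filter and the scaling between libraries. The 12 libraries held 15577507 to 23430259 counts assigned to genes.

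Type I interferons such as IFN-alpha bind a receptor found on nearly all nucleated cells and switch on interferon-stimulated genes through transcription factors that bind the interferon-stimulated response element. Interferon-gamma, made by T cells and NK cells, acts through gamma-activated sites and raises an overlapping set of genes, among them guanylate-binding proteins and the chemokines Cxcl9 and Cxcl10. Secreted interferon can travel in blood, whereas immune cells that have entered a tumour count as its own tissue in bulk RNA. In bulk RNA, more cells of a type and more RNA per cell cannot be told apart.

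In the T cell list 30 of 33 tested genes rose in the right tumour and 4 in the left, and 5 passed for the difference between sides. In the monocyte and macrophage list 20 of 33 rose in the right and 7 in the left, and 2 passed for the difference. Over all genes tested 8.88% rose in the right and 2.71% in the left. Unequal counts on the 2 sides are not a test of the difference, and they depend on the method: DESeq2 called 1820 genes on the right and 1985 on the left. Of 43 type I interferon response genes 16 rose on both sides, and for 10 of them the 95% interval of the difference between sides lay within a factor of 2. The difference between sides passed the threshold (adjusted p under 0.05, edgeR quasi-likelihood test) for 58 genes, 0.391% of those tested. Of these, 56 (0.377%) had the larger effect on the right and 2 (0.0135%) had a lower effect there. Another 67 genes (0.451%) passed on both sides in the same direction with a 95% interval of the difference inside -1 to 1 on the log2 scale, and these are called alike below. They comprised 51 that rose (0.343%) and 16 that fell (0.108%), a split that turned to 76 and 212 without IFN-alpha-pMC_right replicate 3, to 101 and 121 without the 2 libraries that stood apart (named below), and to 58 and 82 with offsets for transcript length and GC content.

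The count of 58 changed with single libraries. It was 0 (smallest adjusted p 0.117) without the 2 libraries that stood apart from their groups, IFN-alpha-pMC_right replicate 3 and IFN-alpha-pMC_left replicate 1. In the edgeR fit it was also 0 on leaving out either of those alone, IFN-alpha-pMC_right replicate 2, IFN-alpha-pMC_left replicate 2, pMC_right replicate 1 or 2, or pMC_left replicate 2 or 3, with smallest adjusted p-values of 0.0549 to 0.087. Where no gene differs, a share of about 0.05 of the tested genes reaches an unadjusted p under 0.05. Without the 2 libraries that stood apart, 1022 of 14980 tested genes did so. Over the 8 fits with 1 library less that called none the number was 1057 to 2121, of 15010 to 15134 tested. The count past the adjusted threshold was 36 without IFN-alpha-pMC_left replicate 3, 56 without pMC_right replicate 3, 65 without pMC_left replicate 1 and 85 without IFN-alpha-pMC_right replicate 1, and DESeq2 on all 18 libraries called 253. All 56 genes with the larger right effect kept a positive difference and an unadjusted p under 0.05 in each of the 20 alternative fits, the ones with no call included. The 56 were chosen for a small p in these same libraries, which the alternative fits reuse, so this is not an independent check. Offsets for transcript length and GC content left 16 of the 56 past the threshold. The 2 libraries that stood apart had opposite trends of level with transcript length (Spearman 0.37 in IFN-alpha-pMC_right replicate 3 and -0.45 in IFN-alpha-pMC_left replicate 1, each across genes of 1 library). Such trends were not confined to them: IFN-alpha-pMC_right replicates 1 and 2 had -0.29 and -0.41, and pMC_left replicate 1 had 0.3. The rest lay between -0.17 and 0.09. The part of length in the result was not tested beyond the fit with offsets.

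**Figure D1:**
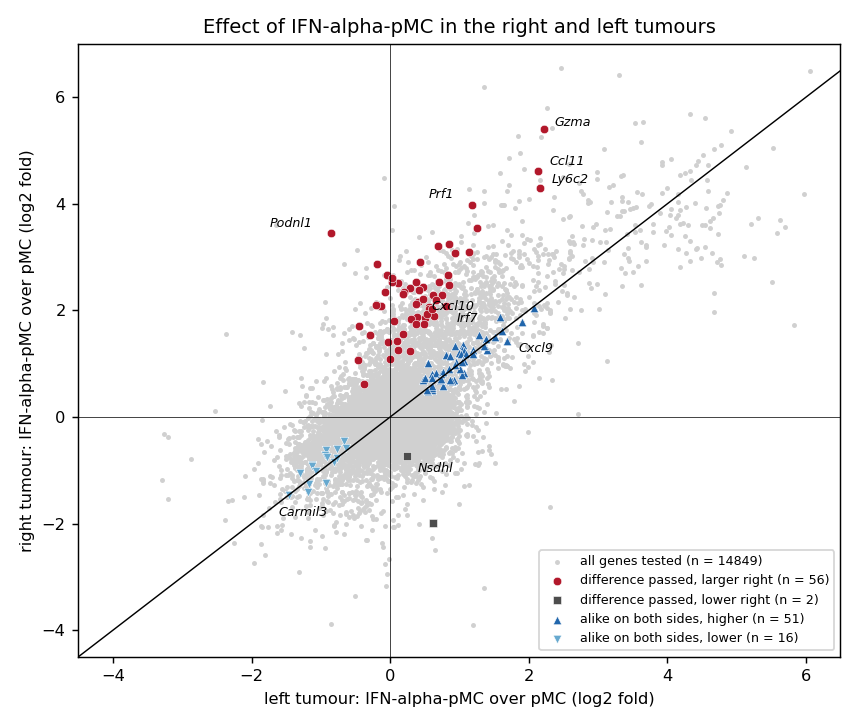
Effect of IFN-alpha-pMC over pMC in the right tumour (vertical axis) against the left tumour (horizontal axis), both in log2 fold, 1 point per tested gene, with the diagonal of equal effects. The 56 genes with a larger right effect lie above the diagonal and the 67 alike genes lie close to it. Another 7 genes fall outside the axes.

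The sequence just before the start of 3 of these genes is shown so that the interferon-stimulated response element, counted below over both gene sets, can be seen in place. Cxcl10, which encodes a chemokine that attracts T cells through CXCR3, and Gbp2, a guanylate-binding protein, were alike on both sides. Gzma, granzyme A of cytotoxic lymphocytes, had a larger effect on the right. Capitals mark the core of the response element, TTTCNNTTTC read on either strand, and each run gives the 250 bases before the RefSeq start, 5′ to 3′ on the gene's own strand (RefSeq, build GRCm38.p6).
Cxcl10 (chr5:92348890-92349139, minus strand): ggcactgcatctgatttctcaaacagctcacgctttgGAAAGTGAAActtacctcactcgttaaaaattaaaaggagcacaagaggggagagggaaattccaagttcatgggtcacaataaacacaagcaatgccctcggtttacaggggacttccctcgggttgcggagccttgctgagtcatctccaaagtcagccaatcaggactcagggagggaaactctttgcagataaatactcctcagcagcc
Gbp2 (chr3:142620413-142620662, plus strand): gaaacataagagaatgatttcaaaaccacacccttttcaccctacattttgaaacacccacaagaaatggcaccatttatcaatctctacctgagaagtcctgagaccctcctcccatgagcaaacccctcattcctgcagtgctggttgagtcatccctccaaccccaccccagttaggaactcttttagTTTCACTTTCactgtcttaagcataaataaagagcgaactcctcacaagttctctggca
Gzma (chr13:113100982-113101231, minus strand): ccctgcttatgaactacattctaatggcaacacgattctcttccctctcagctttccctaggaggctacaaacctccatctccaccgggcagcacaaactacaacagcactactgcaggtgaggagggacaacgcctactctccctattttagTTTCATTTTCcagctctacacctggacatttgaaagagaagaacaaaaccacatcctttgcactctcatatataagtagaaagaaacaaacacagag
The core began 213 bases before the start in Cxcl10, 59 bases before it in Gbp2 and 97 bases before it in Gzma (positions -213, -59 and -97).

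The search covered 300 bases for each promoter, 250 before the start and 50 after it. A RefSeq promoter was listed for 42 of the 56 genes with a larger right effect, and the response element core lay in 3 of them (7.14%), those of Gzma, Tgfbi and Psd4. It lay in 16 of the 41 listed promoters of the 51 alike genes that rose (39.0%), and in 0 of 13 of those that fell. Among all tested genes with a listed promoter the share was 4.01% (426 of 10627). The gamma-activated site, TTCNNNGAA, was found in 4 of the 42 (9.52%), in 8 of the 41 (19.5%) and in 8.35% of all tested genes. Both strands were searched and matches could overlap. A match shows only that the letters are in this window.

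The genes with a larger effect on the right all rose there, and 10 of them rose on the left as well. All 56 passed the threshold as higher in IFN-alpha-pMC_right than in pMC_right, with a median log2 effect of 2.25 (0.61 to 5.40). Their median effect on the left was 0.40 (-0.85 to 2.22). On the left 46 did not pass, and for 34 of those 46 the 95% interval of the left effect lay inside -1 to 1, so a left effect of 2-fold or more lay outside it. On the left 24 of the 56 were higher at an unadjusted p under 0.05. The 10 that passed there too were Adam8, Thy1, Irf5, Ccl11, Spi1, Tgfbi, Ly6c2, Irf7, Gzma and Cd3g, all as higher and by less than on the right.

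The difference can also be read as the side contrast of the IFN-alpha-pMC groups minus that of the pMC groups, and the 56 were chosen on both. In all 56, each of the 3 IFN-alpha-pMC_right libraries was above each of the 3 IFN-alpha-pMC_left libraries, which held for 11.9% of all genes. This was not particular to the 56. Among the alike genes that rose it held for some, such as Cxcl10, Zbp1 and Gbp2, and not for others, such as Cxcl9 and Gbp3. Between the pMC groups, right minus left had a median of -0.23 log2 over the 56 (-1.28 to 0.26), and the estimate was negative in 52. The pMC groups made up a sizeable share for some, such as Nfkbid, with 1.93 between the IFN-alpha-pMC groups and -1.15 between the pMC groups. No gene of the 14849 passed between pMC_right and pMC_left in the edgeR test (310 at an unadjusted p under 0.05, of which 7 are among the 56), whereas 375 passed between IFN-alpha-pMC_right and IFN-alpha-pMC_left.

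The T cell list had the highest median difference of the lists examined. Of 33 tested T cell genes, all 33 had a positive difference (median 1.74 log2, against 0.03 over all genes) and 5 passed, all 5 with the larger effect on the right. On the right 30 of the 33 rose, and on the left 4. The median effect was 2.56 on the right and 0.85 on the left. Their summed level was 395, 495 and 428 CPM (a gene's share of its library's gene counts, times 1000000) in IFN-alpha-pMC_right and 61.7, 99 and 91.9 CPM in pMC_right, against 159, 134 and 118 CPM in IFN-alpha-pMC_left and 74.5, 98.6 and 77.6 CPM in pMC_left. The left IFN-alpha-pMC libraries were thus all above the left pMC libraries, and all below the right IFN-alpha-pMC libraries.

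The 5 that passed were Zap70, Cd5, Cd28, Cd8b1 and Cd3g. Cd8b1 is named as the fifth of them, after its values were seen. Zap70, the kinase that relays the T cell receptor signal, measured 7.95, 10.4 and 10.1 CPM in IFN-alpha-pMC_right and 1.16, 1.51 and 1.71 CPM in pMC_right, against 1.86, 1.69 and 1.36 CPM in IFN-alpha-pMC_left and 1.88, 1.34 and 2.23 CPM in pMC_left. The right groups did not overlap and the left groups did. Its difference was 2.70 ± 0.47 log2 (SE, adjusted p 0.0241), made of a right effect of 2.66 and a left effect of -0.05.

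Cd28, the costimulatory receptor of T cells, stood at 13.1, 16.2 and 13.6 CPM in IFN-alpha-pMC_right and 0.936, 1.41 and 2.18 CPM in pMC_right, against 2.63, 3.1 and 2.67 CPM in IFN-alpha-pMC_left and 1.97, 2.61 and 1.09 CPM in pMC_left (difference 2.52 ± 0.45, adjusted p 0.0282). Cd5, a receptor that dampens T cell receptor signalling, had a difference of 2.47 ± 0.44 (adjusted p 0.025) and a left effect of 0.43 that did not pass. Cd3g, the gamma chain of CD3, rose on both sides, by 3.09 on the right and 1.14 on the left, and the difference of 1.94 ± 0.39 passed (adjusted p 0.0429). Cd8b1, the beta chain of CD8, rose by 3.25 on the right and had a left estimate of 0.85 that did not pass (difference 2.40 ± 0.46, adjusted p 0.0327).

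The alpha chain, Cd8a, rose by 2.48 on the right, with a left estimate of 0.98 that did not pass, and its difference of 1.5 ± 0.52 did not pass (adjusted p 0.288). Lck, the kinase bound to CD4 and CD8, likewise had a difference that did not pass (0.96 ± 0.43, adjusted p 0.413). Of the 20 checkpoint and regulatory genes, 11 rose on the right and 3 on the left, and none passed for the difference (4 with DESeq2, 9 by unadjusted p under 0.05 in edgeR). Lag3, an inhibitory receptor, came closest with a difference of 1.67 ± 0.35 (adjusted p 0.0519). Cd274, which encodes the ligand PD-L1, rose on both sides, by 1.83 on the right and 1.30 on the left, with a difference of 0.53 (interval -0.26 to 1.32).

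Most cytotoxic effector genes rose on the right and fewer passed on the left. Of 20 tested, 18 rose on the right and 10 on the left, 17 had a positive difference (median 1.29), and 2 passed, Prf1 and Gzma. Prf1, the pore-forming protein perforin, measured 25, 31.8 and 42.5 CPM in IFN-alpha-pMC_right and 2.42, 2.17 and 1.55 CPM in pMC_right, against 2.63, 5.18 and 4.3 CPM in IFN-alpha-pMC_left and 1.79, 2.1 and 1.83 CPM in pMC_left. The difference was 2.79 ± 0.49 (adjusted p 0.0245).

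Gzma, whose promoter is printed above, measured 140, 223 and 105 CPM in IFN-alpha-pMC_right and 2.64, 3.77 and 4.51 CPM in pMC_right, against 18.7, 13 and 8.1 CPM in IFN-alpha-pMC_left and 2.45, 3.57 and 3.45 CPM in pMC_left. No library of an IFN-alpha-pMC group overlapped the pMC group of its side. It rose by 5.40 ± 0.50 on the right and 2.22 ± 0.46 on the left, a difference of 3.19 ± 0.63 (adjusted p 0.0417). Gzmb, granzyme B, rose by 4.74 and 2.58 in the same order, and its difference of 2.17 ± 0.55 did not pass (adjusted p 0.108).

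Ifng, which encodes interferon-gamma, had no resolved difference between sides. It measured 8, 6.31 and 7.04 CPM in IFN-alpha-pMC_right and 0.44, 1.04 and 0.881 CPM in pMC_right, against 2.57, 3.73 and 2.39 CPM in IFN-alpha-pMC_left and 0.569, 0.637 and 0.567 CPM in pMC_left. It rose on both sides (3.12 ± 0.40 on the right, 2.39 ± 0.41 on the left), and the difference of 0.73 had an interval of -0.47 to 1.94. Whether its difference is smaller than that of Prf1 was not tested.

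Of the 21 NK cell genes, 18 rose on the right and 3 on the left, with a median difference of 1.04. The 2 that passed were Gzma again and Il2rb, the receptor chain that NK cells and T cells use for interleukins 2 and 15 (difference 2.39 ± 0.47, adjusted p 0.04, left effect 0.12 ± 0.33). Ncr1, the NK cell receptor NKp46, rose by 2.46 on the right, and its difference of 1.04 ± 0.56 did not pass (adjusted p 0.461). Among the genes of the 56 in no list, Sash3, Sh2d2a, Ptpn7, Prkch, Rassf5, Runx3 and Selplg are known from T cell signalling, differentiation or adhesion, and are grouped here after they were called. In all 39 of the 56 were in no list. Runx3, a transcription factor of CD8 T cells, had a difference of 2.57 ± 0.53 (adjusted p 0.0464) and a left effect of 0.03.

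**Figure D2:**
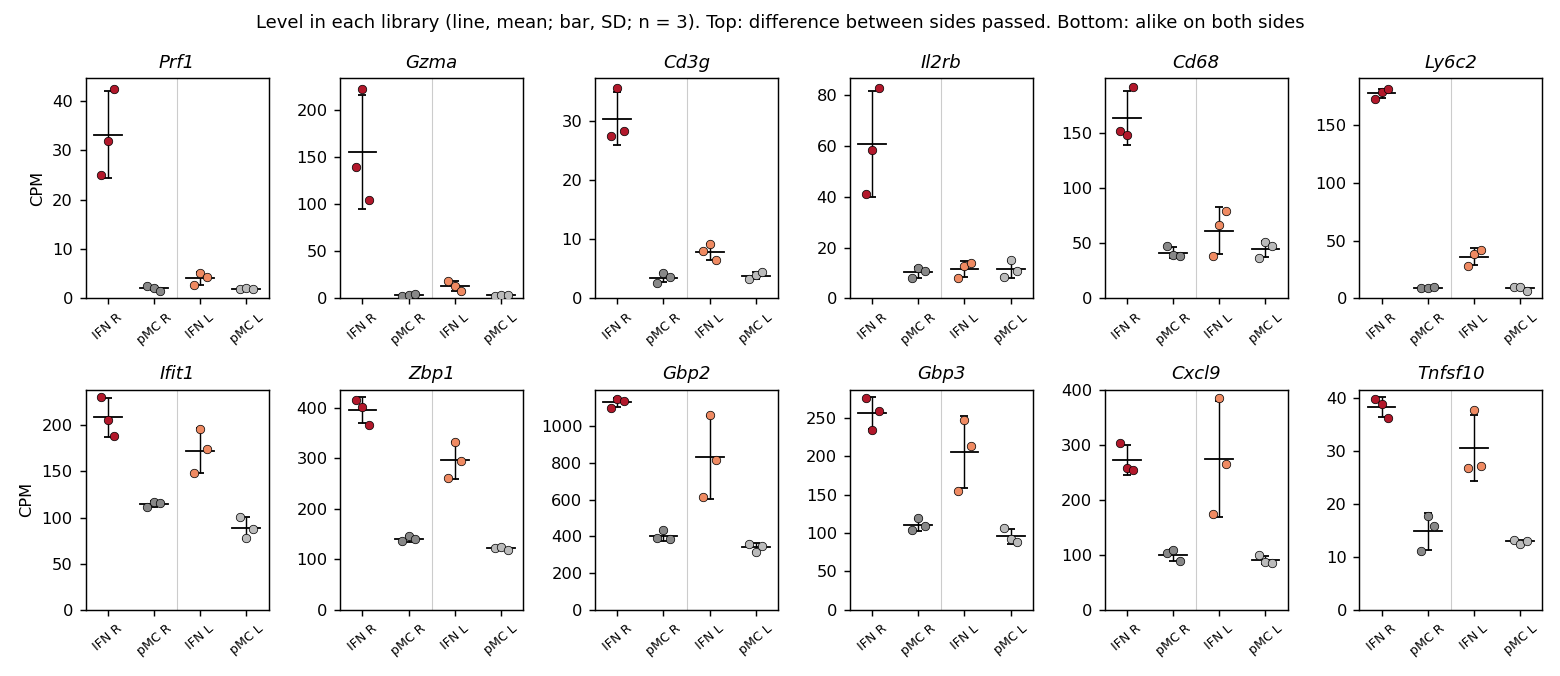
Level of 12 genes in each library, in CPM on a linear axis from 0, with the mean and SD of the 3 libraries (IFN, IFN-alpha-pMC; R, right; L, left). In the top row every left IFN-alpha-pMC library lies below every right one, which also holds for Zbp1 and Gbp2 in the bottom row. In the bottom row both IFN-alpha-pMC groups lie above both pMC groups, which also holds for Prf1, Gzma, Cd3g and Ly6c2 in the top row.

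Among monocyte and macrophage genes 2 passed for the difference itself. Of 33 monocyte and macrophage genes, 20 rose on the right and 7 on the left, and 28 had a positive difference (median 0.74). The 2 were Ly6c2 and Cd68. Ly6c2, a marker of inflammatory monocytes that some lymphocytes also carry, measured 173, 179 and 181 CPM in IFN-alpha-pMC_right and 8.64, 8.49 and 9.43 CPM in pMC_right, against 28.2, 38.3 and 42 CPM in IFN-alpha-pMC_left and 9.45, 9.61 and 6.72 CPM in pMC_left. It rose by 4.29 ± 0.31 on the right and 2.17 ± 0.29 on the left (difference 2.12 ± 0.40, adjusted p 0.0327).

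Cd68, a lysosomal protein of macrophages, measured 152, 148 and 192 CPM in IFN-alpha-pMC_right and 47.2, 39 and 38.5 CPM in pMC_right, against 38.3, 66.8 and 79.5 CPM in IFN-alpha-pMC_left and 37, 50.8 and 47.7 CPM in pMC_left. The left groups overlapped, the right ones did not, and the difference was 1.42 ± 0.28 (adjusted p 0.0377). The complement genes C1qa and C1qb of resident macrophages rose on the right, by 1.21 and 1.17, and had differences of 0.47 and 0.51 that did not pass. Ccr2, the receptor that brings monocytes out of the marrow, rose on both sides (2.41 on the right, 1.26 on the left), and its difference of 1.16 ± 0.45 did not pass.

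Genes of alternative macrophage activation had a median difference of 1.61 over 15 tested, with a median left effect of -0.03. On the right 9 rose, on the left 3, and 1 passed for the difference, Tgfbi, a matrix protein of macrophages and fibroblasts (1.64 ± 0.30, adjusted p 0.0309). Arg1, arginase, measured 65.8, 116 and 19.2 CPM in IFN-alpha-pMC_right and 0.936, 0.707 and 1.97 CPM in pMC_right, against 4.49, 1.55 and 5.22 CPM in IFN-alpha-pMC_left and 0.569, 1.08 and 0.916 CPM in pMC_left. The right libraries spread widely, and the difference of 3.54 ± 1.33 did not pass (adjusted p 0.335). Il4ra, the interleukin 4 receptor, had a difference of 1.42 ± 0.31 just above the threshold (adjusted p 0.0589).

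Other genes among the 56 are known from myeloid cells or leukocytes in general but, C3ar1 apart, belong to no list and are grouped here after they were called. They were the transcription factors Spi1, Cebpb and Irf5, the complement receptor C3ar1, the receptors Lrrc25, Nfam1, Apobr and Crlf2, the cytoskeletal and adhesion proteins Rac2, Was, Fermt3, Efhd2, Arhgap45 and Adam8, and Arrb2. C3ar1 was the 1 of 17 complement genes that passed (1.49 ± 0.27, adjusted p 0.0302), and 12 of the 17 rose on the right against 2 on the left. Thy1, a surface protein of mouse T cells that fibroblasts also carry and that was counted in the fibroblast list, passed with 1.84 ± 0.30 (adjusted p 0.0228). The fibroblast and matrix list had a median difference of 0.87, with 28 of 32 tested genes positive, 16 that rose on the right and 3 on the left. None of its other 31 genes passed for the difference, and 7 members, Thy1 included, were at an unadjusted p under 0.05. The part of fibroblast RNA in the other results was not tested.

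Ccl11, the eosinophil chemokine eotaxin, was the 1 of 37 chemokine and receptor genes that passed. It measured 15.5, 17.5 and 16.3 CPM in IFN-alpha-pMC_right and 0.495, 0.66 and 0.777 CPM in pMC_right, against 2.25, 3.87 and 3.48 CPM in IFN-alpha-pMC_left and 0.437, 0.828 and 1.05 CPM in pMC_left. No IFN-alpha-pMC library overlapped the pMC libraries of its side, and the effects of 4.62 ± 0.31 on the right and 2.14 ± 0.30 on the left differed by 2.48 ± 0.42 (adjusted p 0.0241). Ccl5, a chemokine of cytotoxic lymphocytes, rose on both sides (2.19 and 1.05, right and left), with a difference of 1.14 ± 0.26 that did not pass (adjusted p 0.0751). The monocyte chemokine Ccl7 rose by 3.24 on the right and 2.17 on the left, and its difference of 1.07 ± 0.53 did not pass (adjusted p 0.436).

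The largest difference of the 56 was that of Podnl1, a matrix proteoglycan of low level here, with 1.55, 1.84 and 2.05 CPM in IFN-alpha-pMC_right and 0.33, 0.0943 and 0.0518 CPM in pMC_right, against 0.257, 0.194 and 0.163 CPM in IFN-alpha-pMC_left and 0.394, 0.509 and 0.305 CPM in pMC_left. Several of these values rest on few counts, since 3 counts in a library came to 0.128 to 0.193 CPM. Its difference was 4.31 ± 0.80 (adjusted p 0.0309). Nfkbid, an inhibitor-of-NF-kappaB family protein, had a difference of 3.07 ± 0.56 (adjusted p 0.0288) and a left effect of -0.19. Outside the groups above and Irf7, which is described below, the 56 held Rftn1, Fam107b, B4galnt1, Rhof, Nedd9, H2-Q6, Adap1, Apod, Psd4, Rinl, H2-Q4, Nrgn, Metrnl, Basp1, Atp2a3, Tnfrsf19, B430306N03Rik, Rab3il1.

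**Figure D3:**
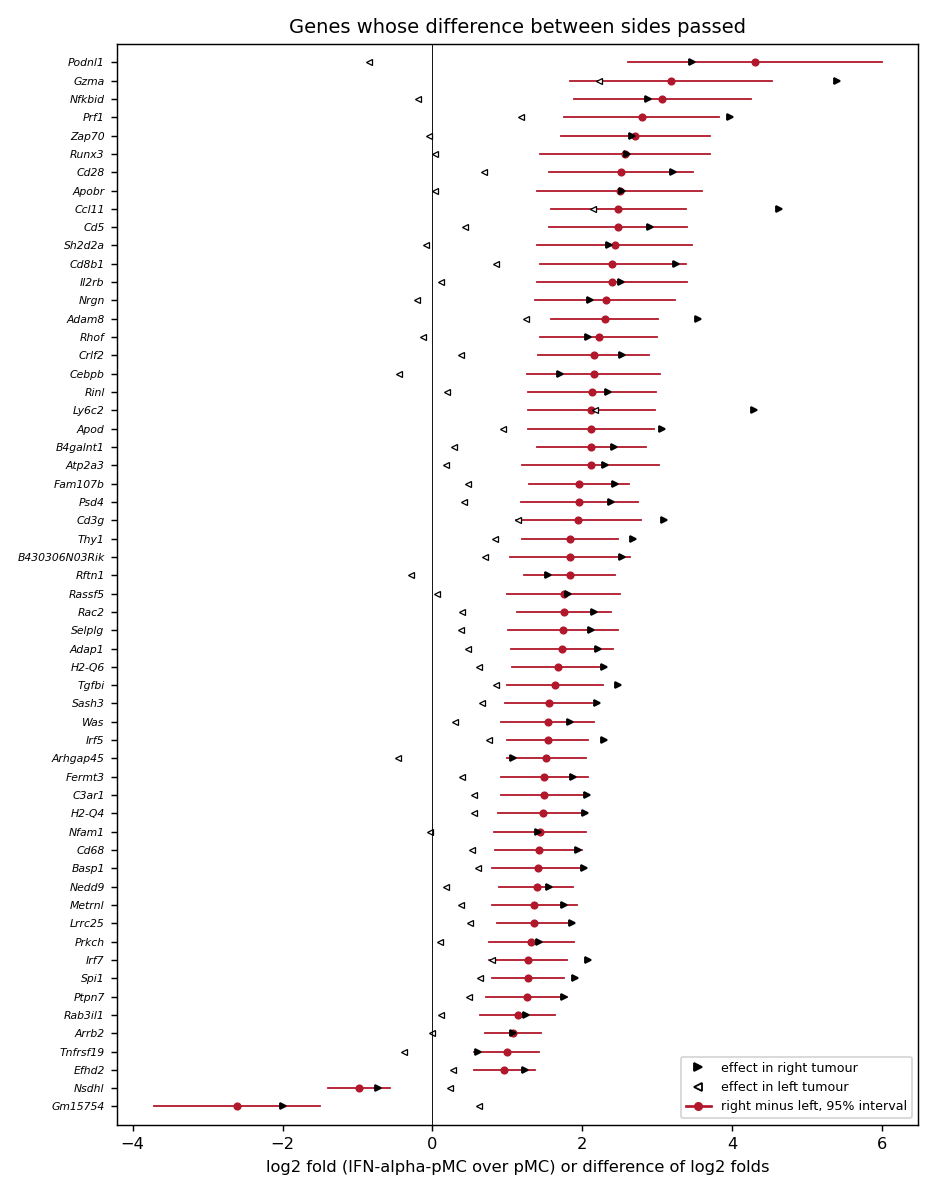
The 58 genes whose difference between sides passed, ordered by the difference. Filled triangles give the right effect, open triangles the left effect, and circles the right minus left difference with its 95% interval, all on the log2 scale. The right effects of the upper 56 genes lie between 0.61 and 5.40 and their left effects between -0.85 and 2.22.

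In the lower direction only Nsdhl and Gm15754 passed. Nsdhl, an enzyme of cholesterol synthesis, measured 134, 121 and 119 CPM in IFN-alpha-pMC_right and 204, 217 and 188 CPM in pMC_right, against 163, 202 and 199 CPM in IFN-alpha-pMC_left and 173, 152 and 185 CPM in pMC_left. It fell on the right (-0.73 ± 0.14), the left groups overlapped (0.24 ± 0.14), and the difference was -0.98 ± 0.20 (adjusted p 0.0429). Gm15754 had a difference of -2.61 ± 0.53 (adjusted p 0.0429). The next by p in this direction, Gm773, Zwilch, Gm12002 and Rgs4, did not pass, with differences of -2.07, -0.76, -2.88 and -1.37 in that order (adjusted p 0.0942 to 0.113).

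**Figure D4:**
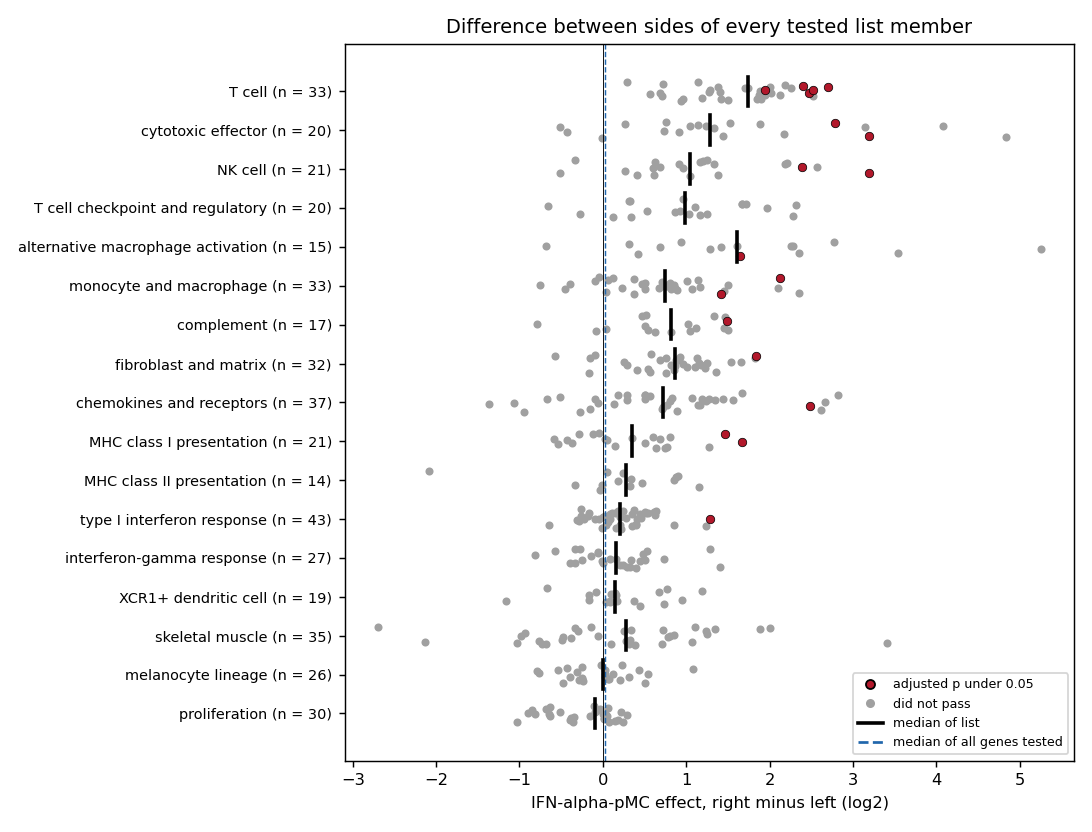
Difference between sides (right minus left, log2) of every tested member of 17 gene lists, with the median of each list and of all genes tested (0.03). T cell genes have a median of 1.74 and 5 members past the threshold, and the type I interferon and interferon-gamma lists have medians of 0.20 and 0.16.

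Interferon-stimulated genes had positive median effects on both sides, and some passed on each. Of 43 tested type I interferon response genes, 28 rose on the right and 17 on the left, 16 of them on both. The median effect was 0.83 on the right and 0.65 on the left, and the median difference was 0.20. For 25 of the 43 the interval of the difference lay inside -1 to 1, against 38.5% of all genes tested, and 10 met the full condition for alike (0.451% of all genes). They were Ifit1, Ifit3, Ifit3b, Xaf1, Rtp4, Zbp1, Trim30a, Trim30d, Cmpk2 and Herc6. The summed level of the whole list was 8020, 7780 and 8400 CPM in IFN-alpha-pMC_right and 4680, 4820 and 4730 CPM in pMC_right, against 5340, 7200 and 6810 CPM in IFN-alpha-pMC_left and 4700, 4440 and 4440 CPM in pMC_left. The interval lay inside -1 to 1 for 0 of 33 T cell, 0 of 21 NK cell and 0 of 35 skeletal muscle genes, so none of those could be called alike. The median level over the 12 libraries was 60.1 CPM for the 51 alike genes that rose. It was 10.9 CPM for the 56 genes with a larger right effect and 23.2 CPM for all genes tested. The part of level and spread in these calls was not tested.

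Ifit1, an RNA-binding antiviral protein, measured 231, 206 and 189 CPM in IFN-alpha-pMC_right and 111, 117 and 116 CPM in pMC_right, against 148, 196 and 174 CPM in IFN-alpha-pMC_left and 101, 77.5 and 87.8 CPM in pMC_left. Both IFN-alpha-pMC groups lay above both pMC groups, and the difference of effects was -0.23 (interval -0.78 to 0.32). Zbp1, a sensor of nucleic acids that can trigger cell death, rose by 1.47 ± 0.20 on the right and 1.38 ± 0.20 on the left, a difference of 0.09 (interval -0.50 to 0.68). Mx1, an antiviral GTPase, also rose on both sides, by 1.55 and 1.15, but its interval (-0.21 to 1.01) reached just past 1. Isg15, a ubiquitin-like protein, passed on neither side in this test (0.85 ± 0.33 on the right, 1.14 ± 0.33 on the left, difference -0.29).

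Irf7, the factor that drives interferon-alpha genes, was the 1 gene of this list whose difference passed. It measured 238, 237 and 261 CPM in IFN-alpha-pMC_right and 60.1, 53.6 and 56.9 CPM in pMC_right, against 71.7, 107 and 118 CPM in IFN-alpha-pMC_left and 53.6, 64.5 and 62.9 CPM in pMC_left. It rose on both sides (2.08 ± 0.18 on the right, 0.80 ± 0.18 on the left), and the right libraries did not overlap any other group (difference 1.28 ± 0.25, adjusted p 0.0377). Oas3, an RNA-sensing synthetase, had a difference of 1.24 ± 0.37 that did not pass (adjusted p 0.195).

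Interferon-gamma response genes were raised about as much on one side as on the other in their medians, 1.26 on the right and 1.29 on the left. Of 27 tested, 24 rose on the right and 19 on the left, all 19 on both sides, and 9 were alike. None passed for the difference (4 at an unadjusted p under 0.05, 1 with DESeq2). The interval of the difference lay inside -1 to 1 for 11 of the 27, against 38.5% of all genes tested. For the others it reached past that margin, so a 2-fold difference between sides was not excluded. The estimated differences ran from -0.81 to 1.40. Gbp2 measured 1100, 1150 and 1140 CPM in IFN-alpha-pMC_right and 390, 433 and 384 CPM in pMC_right, against 612, 1060 and 817 CPM in IFN-alpha-pMC_left and 360, 312 and 349 CPM in pMC_left. It rose by 1.46 ± 0.22 on the right and 1.38 ± 0.22 on the left (difference 0.08, interval -0.55 to 0.72).

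The chemokine Cxcl9 measured 304, 259 and 254 CPM in IFN-alpha-pMC_right and 103, 108 and 87.9 CPM in pMC_right, against 175, 386 and 265 CPM in IFN-alpha-pMC_left and 99.6, 86.8 and 85.4 CPM in pMC_left, with the highest value in a left library (difference -0.27, interval -0.96 to 0.42). Cxcl10 rose by 1.88 ± 0.24 on the right and 1.59 ± 0.24 on the left, and its difference of 0.29 (interval -0.41 to 0.99) was alike by a narrow margin. Gbp3, another guanylate-binding protein, had effects of 1.18 and 1.19 (right and left). The other alike members of this list were Irf1, Igtp, Tgtp2, Serpina3f and Gm4951. Iigp1, an immunity-related GTPase, rose on both sides with the larger estimate on the left (0.92 on the right, 1.73 on the left), and the difference of -0.81 ± 0.37 did not pass (adjusted p 0.416). Nos2, inducible nitric oxide synthase, and Socs1, an inhibitor of interferon signalling, had differences of 1.40 ± 0.51 and 1.28 ± 0.36 that did not pass.

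The other alike genes that rose included Gm12185 (1.78 ± 0.23 on the right, 1.91 ± 0.23 on the left), Tnfsf10, which encodes the death ligand TRAIL (1.33 and 1.35), Apol10b (1.62 and 1.62), Tapbpl, Myd88, Nmi, Sp110, Ifi203, Mndal, Gm43302, Mapk12, Ly86, Acp5, Dse, Plekha2, Tpm1, Pcgf5, Stk17b, Plekhf2, Arhgap6, Inpp1, Fam111a, Dck, Gcnt1, Morc3, Mdfic, Ccdc25, Kmo, Gjc1, Cysltr2 and Gpm6b. Over the 51, the median effect was 1.04 on the right and 0.95 on the left, and 26 had a positive difference. With the interval built from the errors of the 2 sides, a check chosen after seeing the data, 64 of the 67 stayed alike, and the 3 that did not were Cxcl10, Cysltr2 and Gpm6b. Over the 20 alternative fits the interval stayed inside -1 to 1 for 50 to 64 of the 67, but with 1 library less 5 to 51 of the 67 met the whole condition. The count of all alike genes ran from 5 to 288 in those fits, and leaving out any 1 library except IFN-alpha-pMC_left replicate 1 moved it by more than 1.5 times. Reads that align to several places were left out of the counts, so the split between close copies such as Ifit3 and Ifit3b, Trim30a and Trim30d, or H2-Q4 and H2-Q6 is uncertain.

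The 16 alike genes that fell were Carmil3, Jph4, Cbr2, Clcn2, Abcc10, Vash1, Tle6, Sox9, Hsd17b1, Rapgef3, Rap1gap, Hps4, Dtx3, Zmym3, Ckb and Apbb1. Sox9, a transcription factor of neural crest derivatives, measured 5.73, 4.59 and 7.85 CPM in IFN-alpha-pMC_right and 10.3, 9.95 and 12.9 CPM in pMC_right, against 6.55, 7.21 and 9.46 CPM in IFN-alpha-pMC_left and 14.4, 19.7 and 20.2 CPM in pMC_left. It fell by 0.91 on the right and by 1.13 on the left. Carmil3, a regulator of actin, fell by 1.46 on each side (difference 0.00, interval -0.90 to 0.91). Per1, a clock gene, also fell on both sides, to 25.3, 20.6 and 47.3 CPM in IFN-alpha-pMC_right, against 111, 133 and 101 CPM in pMC_right, and to 28.8, 21.4 and 32.6 CPM in IFN-alpha-pMC_left, against 121, 218 and 130 CPM in pMC_left. Its interval of the difference (-0.77 to 1.65) was too wide to call alike.

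Antigen presentation was mixed. Of 21 MHC class I genes, 13 rose on the right and 3 on the left, and 2 passed for the difference, the class I molecules H2-Q6 (1.67 ± 0.29, adjusted p 0.0241) and H2-Q4 (1.47 ± 0.28, adjusted p 0.0327). H2-D1 rose by 0.91 ± 0.19 on the right and had a left estimate of 0.23 that did not pass, and B2m, the shared light chain, rose by 0.79 on the right, with a left estimate of 0.28 that did not pass. Their differences of 0.68 and 0.51 did not pass. Of 14 class II genes, 6 rose on the right and 3 on the left, and none passed for the difference (4 at an unadjusted p under 0.05, 1 with DESeq2). Clec9a and Xcr1, markers of cross-presenting dendritic cells, had differences of 0.16 and -0.67 that did not pass.

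**Figure D5:**
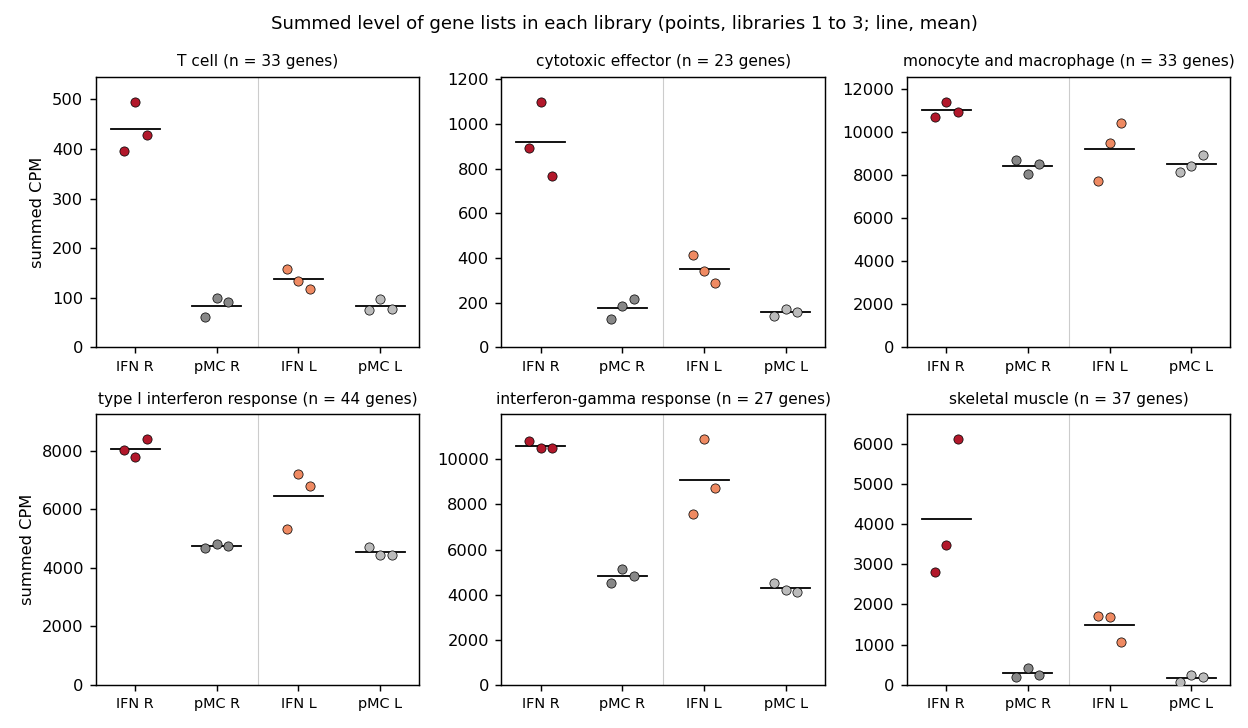
Summed level of 6 gene lists in each library (CPM, linear axis from 0), with the mean of the 3 libraries. The T cell list reached 395 to 495 CPM in IFN-alpha-pMC_right and 118 to 159 CPM in IFN-alpha-pMC_left, while the interferon-gamma list reached 10500 to 10800 CPM and 7570 to 10900 CPM in the same groups.

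Muscle RNA moved with IFN-alpha-pMC on both sides. Of 35 skeletal muscle genes, 22 rose on the right and 10 on the left, and none passed for the difference (1 at an unadjusted p under 0.05, 0 with DESeq2). The median effect was 3.85 on the right and 3.96 on the left, and the median difference was 0.28, with 20 of the 35 positive. The summed level of the list was 2810, 3490 and 6120 CPM in IFN-alpha-pMC_right and 188, 412 and 255 CPM in pMC_right, against 1720, 1680 and 1060 CPM in IFN-alpha-pMC_left and 77.5, 237 and 185 CPM in pMC_left. With a muscle score as a covariate, 50 of the 56 genes with a larger right effect still passed, while the genes past on the right and left numbered 715 and 128. The score was 0.34 to 1.68 in the IFN-alpha-pMC libraries and -1.34 to -0.02 in the pMC libraries. On either side this fit therefore cannot part muscle RNA from treatment. The part of muscle RNA in the other results was not tested beyond this fit. Melanocyte genes, which check the label of the tumours, summed to 43800 to 47000 CPM in IFN-alpha-pMC_right, 50000 to 53100 CPM in pMC_right, 44200 to 53100 CPM in IFN-alpha-pMC_left and 48900 to 54000 CPM in pMC_left, and none of the 26 passed for the difference (2 at an unadjusted p under 0.05, 0 with DESeq2).

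Most genes could not be placed in either kind. On the right 1497 genes passed (8.88% as higher and 1.21% as lower), and on the left 572 (2.71% and 1.14%). The left count depended on single libraries: it was 46, 38 and 34 without pMC_left replicates 1, 2 and 3, 33 and 233 without IFN-alpha-pMC_left replicates 2 and 3, 320 without pMC_right replicate 2, and 366 and 1868 without IFN-alpha-pMC_right replicates 2 and 3. Of these, 337 passed on both sides, 58.9% of the left genes and 22.5% of the right genes, all in the same direction. Of the 311 that rose on both sides, 225 had the larger estimate on the right, with a median difference of 0.39. Another 1112 genes passed on the right only with a difference that did not pass, and 990 of them had a left estimate of the same sign. The median half-width of the 95% interval of the difference was 0.74 log2, without adjustment over genes. Passing the adjusted threshold took more, and the smallest difference among the 56 was 0.96. The 961 genes that rose on the right only, with a difference that did not pass, had a median difference of 1.02. At this depth and with 3 libraries a group, a difference of about that size was thus often left unresolved for a single gene. At the threshold, Rab3il1 (adjusted p 0.0476) was the last to pass, and Itgal and Junb (0.0504 each) lay just outside it (Itgal is named for that place, after its values were seen).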

How the data were processed

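Whole-number read counts per gene of 18 libraries were used as the authors deposited them, 37620 gene IDs each, of which 32897 were given a symbol from GENCODE M21. Per the submitters' processing notes, the tools were HISAT2 2.1.0 with build mm9, HTSeq 0.10.0, Trimmomatic 0.36, DESeq2 1.20.0, bcl2fastq, FastQC and CASAVA 1.8.2. Neither annotation release nor strand setting was given in the sources used here. Overlapping genes may therefore share counts. Summary rows that name no gene stayed out: assigned reads were 64.5 to 70.7% of the total and reads with several alignments 18.38 to 23.18%.

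edgeR 4.0.16 (R 4.3.3, limma 3.58.1) fitted 1 mean for each of 6 groups with TMM scaling and default low-count filtering, leaving 14849 genes. Quasi-likelihood F tests (two-sided, Benjamini-Hochberg over all genes) gave the right effect, the left effect and their difference. SE is the size over the square root of F, and intervals cover 95%. Values are CPM without TMM. Alternatives were DESeq2 1.42.0, other scaling and filtering, offsets, covariates, the replicate number as a block and left-out libraries. The script was tested on simulated data.

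Members and gene lists were chosen with earlier results of these data known. Genes were named by rule: a panel, up to 10 genes of largest difference in each direction (filled to 6 by p), the 10 alike genes of largest mean effect in each direction, and in each list the 2 of highest CPM and the 2 of smallest p. The 58 genes whose difference passed are named in full, and some other items are not reported here.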

Additional observations from a re-analysis of the deposited data

Results flagged for a closer look

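The effect of IFN-alpha-pMC over pMC differed between the right and the left tumour in 58 genes by a test of the difference itself (edgeR quasi-likelihood test, adjusted p under 0.05). Values below are log2 differences, right effect over left effect.

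The grouping below was made after the genes were called. Among genes known from lymphocytes the differences were 3.19 for Gzma, 2.79 for Prf1, 2.70 for Zap70, 2.57 for Runx3, 2.52 for Cd28, 2.47 for Cd5, 2.43 for Sh2d2a, 2.40 for Cd8b1, 2.39 for Il2rb, 1.94 for Cd3g, 1.84 for Thy1, 1.75 for Rassf5, 1.74 for Selplg, 1.55 for Sash3, 1.32 for Prkch and 1.26 for Ptpn7. Among genes known from myeloid cells or leukocytes in general they were 2.50 for Apobr, 2.30 for Adam8, 2.15 for Crlf2, 2.15 for Cebpb, 2.12 for Ly6c2, 1.75 for Rac2, 1.54 for Was, 1.54 for Irf5, 1.52 for Arhgap45, 1.49 for Fermt3, 1.49 for C3ar1, 1.43 for Nfam1, 1.42 for Cd68, 1.35 for Lrrc25, 1.27 for Spi1, 1.07 for Arrb2 and 0.96 for Efhd2.

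The class I genes H2-Q6 and H2-Q4 had 1.67 and 1.47, the interferon factor Irf7 had 1.28, the chemokine Ccl11 had 2.48, and the matrix genes Podnl1 and Tgfbi had 4.31 and 1.64. The remaining genes with the larger right effect were Nfkbid (3.07), Nrgn (2.31), Rhof (2.22), Rinl (2.13), B4galnt1 (2.12), Apod (2.12), Atp2a3 (2.11), Psd4 (1.96), Fam107b (1.96), B430306N03Rik (1.84), Rftn1 (1.83), Adap1 (1.73), Basp1 (1.41), Nedd9 (1.39), Metrnl (1.36), Rab3il1 (1.14) and Tnfrsf19 (0.99). The effect on the right was the lower one for Gm15754 (-2.61) and Nsdhl (-0.98).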

How the results depend on the processing

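In all 20 alternative fits the 56 genes with the larger right effect kept that direction at an unadjusted p under 0.05, though they were chosen on libraries that these fits reuse. The number that passed after adjustment moved, and so did the other counts; the cause was not tested. DESeq2 called 253 genes for the difference, 1985 on the left and 163 alike. A fit of the 12 libraries alone called 1555 on the left and 163 alike. The muscle covariate gave 715 on the right and 128 on the left. Without the 2 libraries that stood apart, 0 passed for the difference, 1029 on the left and 222 were alike. Offsets for transcript length and GC content gave 22 for the difference, 140 alike and 3332 on the right (1488 higher and 1844 lower, against 1318 and 179), and moved the median right effect of all genes to -0.15, against -0.04. Leaving out 1 library at a time gave 0 to 85 for the difference, 1027 to 1893 on the right, 33 to 1868 on the left and 5 to 288 alike. The replicate number was also used as a block, in separate fits. For the difference, right and left libraries of the same treatment and number were paired, and 133 genes passed. For the right and left effects each side was fitted alone, with the number shared across the treatment and control groups. This gave 612 genes on the right and 2865 on the left. The alike count, which draws on all these fits, was 33. Whether the numbers pair the samples could not be told. Right and left libraries with the same number had correlations of -0.25 to 0.44, and 7 of 12 libraries correlated best with their own number. Depth limits genes such as Podnl1, whose levels lay near 3 counts in several libraries. No named gene's call changed direction, but list medians did, as for the oxidative phosphorylation and ribosomal lists below.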

Other observations

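Immediate early and handling genes had positive differences between sides in 24 of 28 tested (median 0.79 log2). In edgeR none passed, 12 were at an unadjusted p under 0.05, and 6 passed with DESeq2. On the right 11 of the 28 rose and on the left 2 rose. Junb, a subunit of the AP-1 transcription factor, came closest with a difference of 1.12 (adjusted p 0.0504).

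Proliferation genes had a median difference of -0.10 over 30 tested, and 19 of the 30 had an interval of the difference inside -1 to 1. None rose on the right and 2 rose on the left. Mki67, a marker of cycling cells, had a difference of 0.01.

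Oxidative phosphorylation genes had a median difference of -0.55 over 33 tested and cytosolic ribosomal protein genes one of -0.64 over 35 tested. Without IFN-alpha-pMC_right replicate 3 and IFN-alpha-pMC_left replicate 1 the medians were 0.02 and 0.22. The summed level of the ribosomal list was 17100 CPM in IFN-alpha-pMC_right replicate 3 and 45100 CPM in IFN-alpha-pMC_left replicate 1.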
